A study of Homo sapiens with 8 samples.

Results

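Replication-dependent histone genes encode the bulk of the histone protein laid down on newly copied DNA. The set described here is made of every row of the count table whose symbol follows the naming of these genes: H1-1 to H1-6 for the linker histones, and H2AC, H2BC, H3C or H4C followed by a number for the core histones, with older symbols of the HIST1H form also accepted. It held 69 of the 61228 genes in the table, all under current symbols and none under an older one. By class there were 6 H1, 17 H2A, 18 H2B, 13 H3 and 15 H4 genes.

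The counts come from RNA sequencing of 8 clones of RPMI-8402, a human cell line grown from T-cell acute lymphoblastic leukaemia. The clones labelled NKX2-1 knockout (KO) are C12, C15, S04 and S36, and the clones labelled wild type (WT) are WT10, WT13, WT28 and WT30. None was treated, and the question of the series is what changes in transcription when the homeobox factor NKX2-1 is lost. The labels do not say what the letters C and S stand for, how the gene was edited, or whether each clone was grown more than once, so every p-value below measures the spread between these clones only. Each clone is 1 line with its own history, and a difference carried by 2 clones cannot be told apart from differences among clones as such.

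Core histones H2A, H2B, H3 and H4 form the protein spool of the nucleosome, and H1 binds the DNA between nucleosomes. Their replication-dependent genes lie in tight clusters, mostly lack introns, are transcribed mainly in S phase, and give mRNAs that end in a conserved stem-loop in place of a poly(A) tail. Stem-loop binding protein (SLBP) holds that hairpin through processing, translation and decay. Most H4 genes encode one and the same protein, and members of the other classes encode identical or nearly identical proteins, so the cell can draw on many gene copies for each histone.

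Library totals were 2730285 counts in C15 and 12344549 to 25423215 in the other KO clones, against 18453947 to 22916424 in WT clones. Levels are given as CPM, each count as a share of the TMM-scaled library total, and the limit that a count of 0 allows, 3 counts, equals 1.21 CPM in C15 and 0.116 CPM in C12. In C15 only 13 histone genes reached 10 counts, so its values for low genes are loose. NKX2-1 stood at 71.9 CPM in C12 and 11.3 in C15, with 83.4 in S04 and 33.3 in S36, against 56.8 ± 4.39 CPM in WT clones (SD, n = 4), with an exact two-sided permutation p of 0.543. NKX2-1 mRNA thus was not lower in every KO clone, and gene counts cannot show an edit of its coding sequence, so they do not check the labels. Of 10 T-lymphoblast markers 8 averaged above 1 CPM, with a summed level of 1600 to 2110 CPM in KO clones and 1600 to 1980 CPM in WT clones, while the summed level of 5 myeloid markers was at most 1.02 CPM in KO clones and 0.236 CPM in WT clones. It was 6.99 to 14.2 CPM in KO clones and 9.83 to 16.9 CPM in WT clones for 5 B-cell markers, and 6.18 to 14.4 CPM in KO clones and 12.7 to 20.1 CPM in WT clones for 7 fibroblast and epithelial markers.

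Most histone counts in these libraries fell in very few genes. H4C3, an H4 gene at chr6:26103933-26104337 (RefSeq, GRCh38.p14), stood at 2830 CPM in C12 and 4430 in C15, and 4000 in S04 and 5120 in S36, against 3410 CPM in WT10, 2930 in WT13, 2600 in WT28 and 3030 in WT30. That was 67.5% to 76.8% of all counts of the 69 genes in KO clones and 75.8% to 76.5% in WT clones, and by mean CPM it ranked 31 among the 14243 genes tested. H1-2, a linker histone gene at chr6:26055740-26056470, stood at 502 CPM in C12 and 929 in C15, with 550 in S04 and 696 in S36, against 611, 550, 520 and 606 CPM in WT10, WT13, WT28 and WT30. It took a further 9.28% to 15.3% of histone counts in KO clones and 13.7% to 15.2% in WT clones.

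Per kilobase of annotated transcript, the mean over all 8 clones was 8140 CPM for H4C3, 966 for H1-2, 359 for H1-3, 146 for H1-4 and 133 for H1-5. The highest core histone genes after H4C3 were H2AC14 at 106 CPM per kb, H2AC20 at 68.8, H2AC17 at 59.8 and H2AC21 at 48.0, followed by H2BC5 at 35.9, the highest of the H2B class. No H3 gene exceeded the 3.62 CPM per kb of H3C1. These levels follow the annotated transcript length and the share of each mRNA that reached the library, so they describe the libraries and not protein output.

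All 5 classes took a larger share of counts in both S clones than in any WT clone, and C12 stayed close to WT. The H2A class took 0.00683% of counts in C12 and 0.0138% in C15, with 0.0336% in S04 and 0.0404% in S36, against 0.00530% to 0.00748% across the WT clones. H2B genes took 0.00430% in C12 and 0.00630% in C15, and 0.0141% in S04 and 0.0139% in S36, against WT values of 0.00308% to 0.00398%. All 4 KO clones lay above all WT clones for H2B, and C12 lay within the WT range for H2A.

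H3 genes took 0.000755% of counts in C12 and 0.000549% in C15, and 0.00219% in S04 and 0.00245% in S36, against 0.000580% to 0.000704% across the WT clones. The C15 value rests on 15 counts, with a 95% Wilson interval that runs from 0.000333% to 0.000907% and covers all the WT values. H1 genes took 0.0749% in C12 and 0.126% in C15, with 0.157% in S04 and 0.168% in S36, against WT values of 0.0701% to 0.0941%. H4 genes took 0.289% in C12 and 0.403% in C15, and 0.434% in S04 and 0.547% in S36, against 0.252% to 0.348% across the WT clones.

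In the H1 and H4 classes the leading gene hides most of the movement of the rest. On the CPM scale the mean of the S clones over that of the WT clones was 1.82 for H1 and 3.43 without H1-2, and 1.53 for H4 and 4.36 without H4C3. For H2A this ratio was 5.42, for H2B 3.77 and for H3 3.31. The 67 genes without H4C3 and H1-2 took 0.0360% of counts in C12 and 0.0633% in C15, with 0.149% in S04 and 0.154% in S36, against WT values of 0.0295% to 0.0445%. Intervals on these shares cover counting error only. As in any bulk sample, fewer cells that carry a transcript and less of it per cell cannot be told apart.

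**Figure D1:**
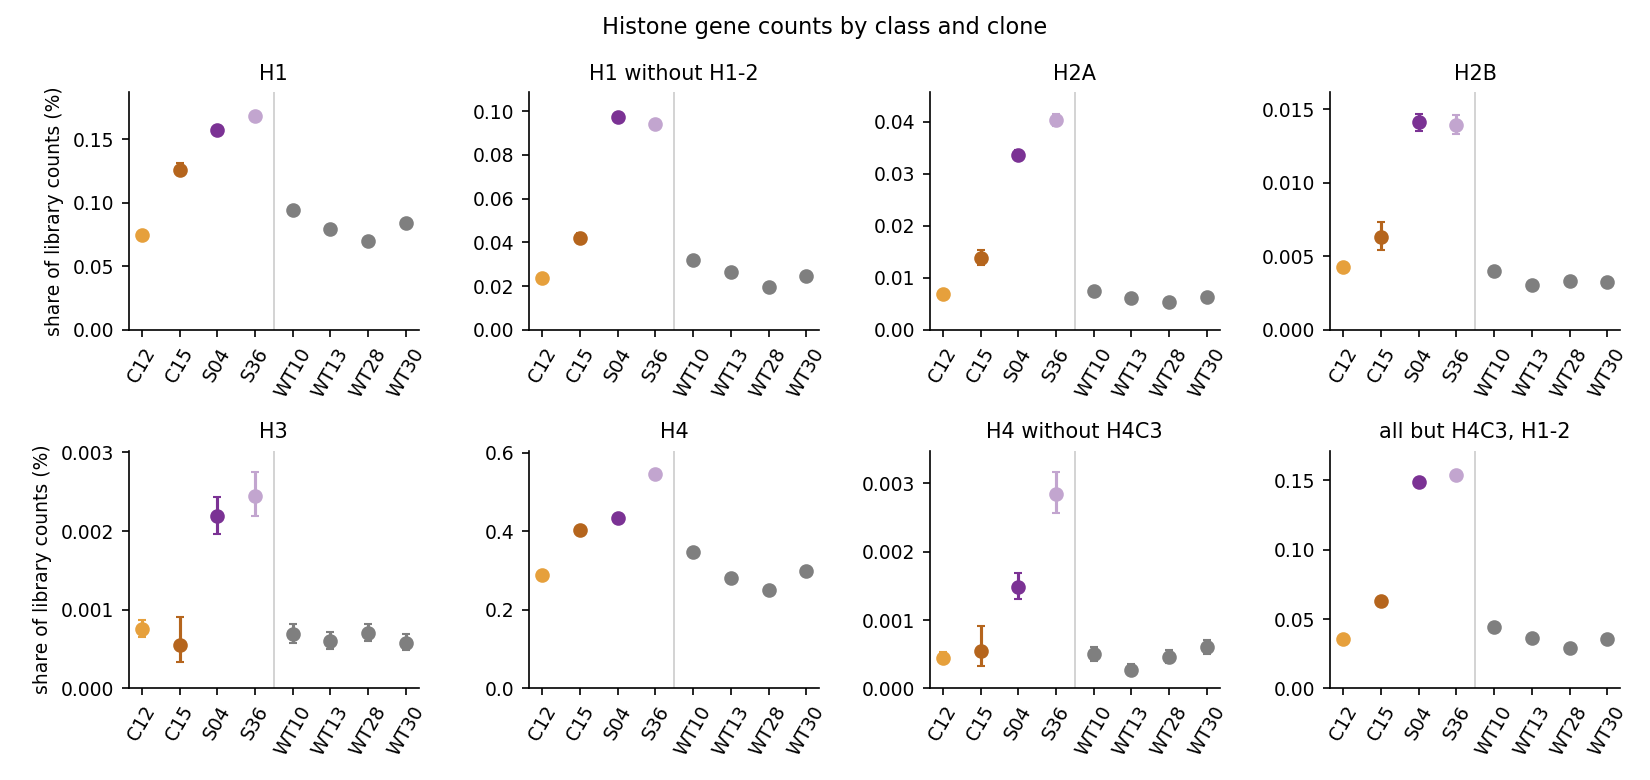
Share of each clone's library counts (%, y axis from 0) taken by each histone class, by H1 and H4 without their leading gene, and by all histone genes without H4C3 and H1-2. Points are clones with KO left of the grey line and WT right of it, and bars are 95% Wilson intervals. S04 and S36 stand above all WT clones in each panel, at 0.149% and 0.154% in the last one, while C12 at 0.0360% lies among the WT clones.

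KO and WT clones were then compared gene by gene with the edgeR quasi-likelihood test over all 14243 genes that passed a filter on low counts. Of the 69 histone genes 35 passed that filter: 4 H1, 9 H2A, 10 H2B, 6 H3 and 6 H4. None of the 35 passed an adjusted p of 0.05, against 0.316% of all genes tested. Their median log2 fold change was 1.61, against 0.02 over all genes, and 33 of 35 were above 0. At an unadjusted p under 0.05 there were 25, all higher in KO clones, beside 8.47% of all genes that were higher at that level. DESeq2 called 16 of them higher, beside 1.85% of all genes, and limma-voom called none, beside 0.190%.

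H2BC5, an H2B gene at chr6:26158121-26171349 whose annotation includes a spliced transcript, had the smallest p. It stood at 16.4 CPM in C12 and 26.2 in C15, with 52.4 in S04 and 47.2 in S36, against 12.3, 10.0, 8.90 and 11.3 CPM in WT10, WT13, WT28 and WT30. Every KO clone lay above every WT clone, and the log2 fold change was 1.75 (SE 0.33, adjusted p = 0.0576 in the edgeR test). In 5 of the 35 genes all 4 KO clones lay above all 4 WT clones, namely H2BC5, H2BC14, H2BC21, H3C8 and H4C5, beside 4.42% of all genes tested. Those names were singled out after their values were seen. H2BC14, H3C8 and H4C5 reached the count level of the filter in only 0, 1 and 3 WT clones. They were tested with the help of KO clones, so their place in this count rests in part on the filter.

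KO clones differed among themselves. The median difference of the 35 genes from the mean of the WT clones, in log2 CPM, was -0.07 in C12 and 0.69 in C15, and 1.89 in S04 and 2.11 in S36, while the WT clones lay between -0.16 and 0.21. C12 was above all WT clones in 10 of the 35 genes, beside 24.8% of all genes tested, and within the WT range in 19, beside 51.4%. C15 was above all WT clones in 21, beside 35.3% of all genes. Both S clones were above all WT clones in 30, beside 20.0%. Without C12 the comparison called 19 of 39 histone genes higher, beside 1.60% of all genes, and without C15 it called 3 of 39, beside 0.245%.

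**Figure D2:**
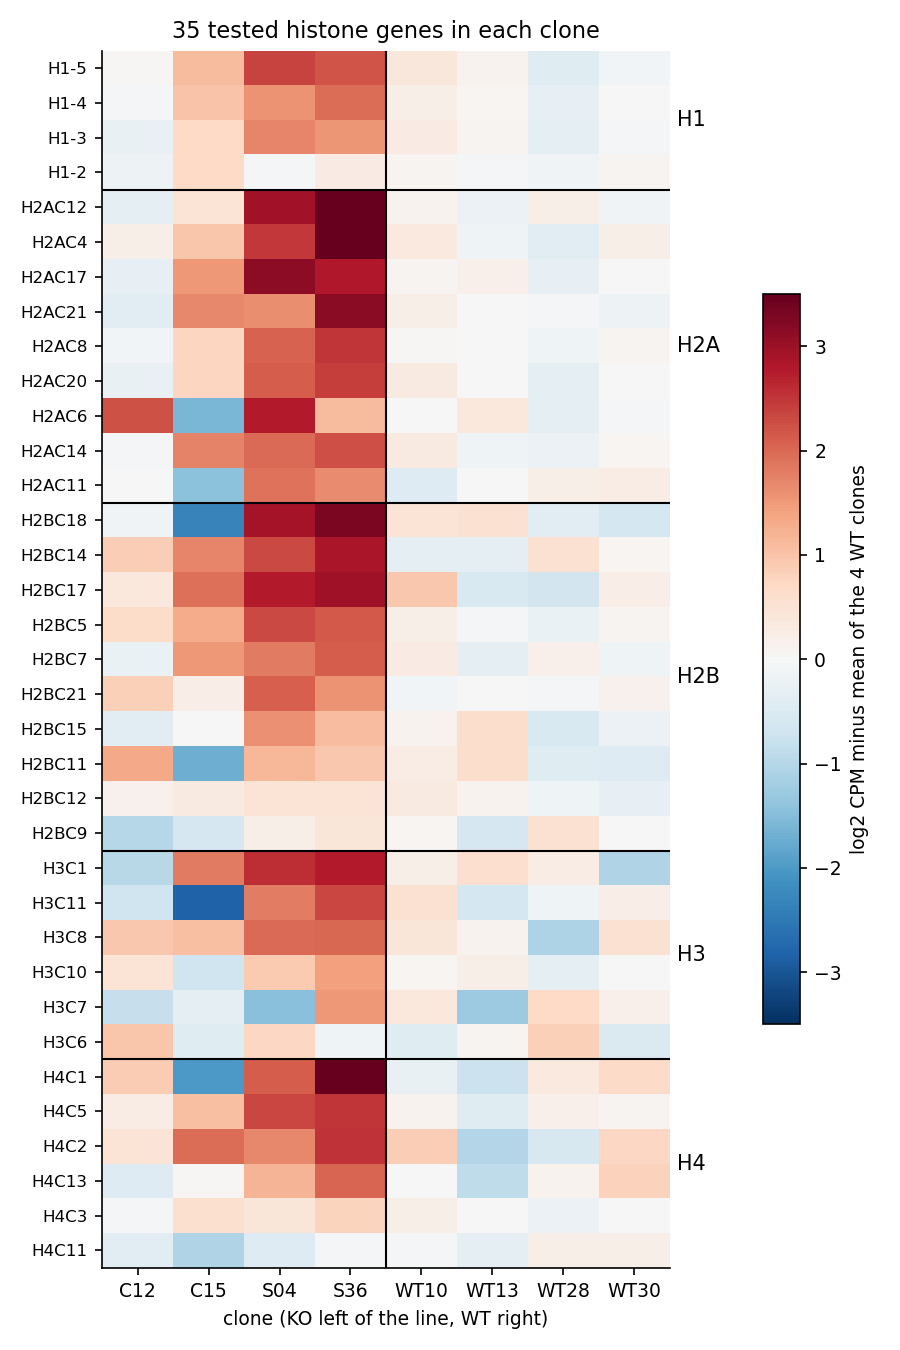
Log2 CPM (prior count 2) of the 35 tested histone genes in each clone, minus the mean of the 4 WT clones, with rows grouped by class and sorted by the difference in S clones. Colours are clipped at 3.5 in either direction. The columns S04 and S36 are high in most rows, with medians of 1.89 and 2.11, and the rows H1-2, H3C6, H3C7, H2BC9 and H4C11 are the ones where the S clones do not both exceed every WT clone.

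Since the labels give KO clones 2 letters, S clones were compared with WT clones in a fit with 3 groups. This comparison shares its WT clones with the KO comparison above and so restates it in part. Of the 35 genes 23 were higher in S clones and none was lower, beside 4.69% of all genes that were higher and 4.96% that were lower. Their median log2 fold change was 2.15, against 0.02 over all genes. By class 3 of 4 H1, 8 of 9 H2A, 6 of 10 H2B, 4 of 6 H3 and 2 of 6 H4 genes passed. All 4 WT clones alone met the count level of the filter for 25 of the 35 genes, and 15 of those 25 passed. The other 10 entered with the help of KO clones, so a gene that is high only there was more likely to be tested.

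Of the H1 genes H1-3, H1-4 and H1-5 were called higher in S clones and H1-2 was not, while H1-1 and H1-6, with at most 6 counts in a clone, were not tested. H1-5 stood at 220 CPM in S04 and 194 in S36, against 55.6, 46.4, 31.9 and 39.5 CPM in WT10, WT13, WT28 and WT30 (log2 fold change 2.26, SE 0.28, edgeR adjusted p = 0.00459). H1-4 stood at 190 and 248 CPM in S04 and S36, against 51.5 to 73.9 CPM in WT clones (log2 fold change 1.78, adjusted p = 0.00696). H1-3 stood at 489 and 443 CPM in S04 and S36, against 119 to 183 CPM in WT clones (log2 fold change 1.61, adjusted p = 0.00755). In these linker histone genes the S clones did not overlap the WT clones, whereas S04 lay among the WT clones for H1-2, whose log2 fold change was 0.12 (SE 0.22, adjusted p = 0.772).

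In the C clones these linker histone genes split by clone. H1-5 was at 43.8 CPM in C12 and 91.9 in C15, H1-4 at 61.3 and 128, and H1-3 at 127 and 243. C12 was within the WT range and C15 above it in each. C15 was also the highest of all 8 clones for H1-2, at 929 CPM.

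Among H2A genes the S clones stood furthest from WT in H2AC12, H2AC4 and H2AC17. H2AC12 was at 11.7 CPM in S04 and 18.1 in S36, against 1.54, 1.20, 1.65 and 1.29 CPM in WT10, WT13, WT28 and WT30 (log2 fold change 3.38, SE 0.30, edgeR adjusted p = 0.00142, the smallest of any histone gene). H2AC4 was at 9.27 and 19.4 CPM in S04 and S36, against 1.18 to 2.02 CPM in WT clones (log2 fold change 3.14). H2AC17 was at 70.3 and 56.0 CPM in S04 and S36, against 6.45 to 9.01 CPM in WT clones (log2 fold change 2.98). C12 lay close to WT in all of them, at 1.08, 1.85 and 6.47 CPM, and C15 lay above WT, at 2.02, 3.22 and 23.0 CPM, the first of which rests on 5 counts.

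The other called H2A genes had smaller fold changes. H2AC14 was at 76.1 CPM in S04 and 91.4 in S36, against 16.4 to 24.0 CPM in WT clones (log2 fold change 2.11, edgeR adjusted p = 0.0127), and C15 was at 64.5. H2AC20 was at 57.6 and 70.5 CPM in S04 and S36, against 10.5 to 16.5 CPM in WT clones (log2 fold change 2.26, adjusted p = 0.00389). H2AC8 was at 28.2 and 38.4 CPM in S04 and S36, against 6.03 to 7.18 CPM in WT clones (log2 fold change 2.32, adjusted p = 0.00274). Groups did not overlap in any of these genes. H2AC21 had the largest gap between the S clones of those called, with 23.5 CPM in S04 and 67.4 in S36, against 6.65 to 8.71 CPM in WT clones.

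H2AC6 was the H2A gene that did not pass (log2 fold change 2.20, edgeR adjusted p = 0.0588). It stood at 12.9 CPM in C12 and 0.806 in C15, with 18.8 in S04 and 5.79 in S36, against 2.12 to 3.46 CPM in WT clones. C12 and S04 were high together here, which is not the order of the clones in the rest of the class.

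H2B genes were mixed. H2BC5, given above, had a log2 fold change of 2.23 in S clones (SE 0.21, edgeR adjusted p = 0.00222). H2BC7 was at 33.2 CPM in S04 and 40.9 in S36, against 7.54 to 11.6 CPM in WT clones (log2 fold change 1.96, adjusted p = 0.0160), and H2BC21 was at 15.2 and 10.4 CPM, against 3.24 to 3.86 CPM in WT clones (log2 fold change 1.89, adjusted p = 0.00577). H2BC14, H2BC17 and H2BC18, all under 1.5 CPM in every WT clone, had log2 fold changes of 2.91, 2.90 and 3.28. They met the count level of the filter in 0, 2 and 2 WT clones, so KO clones helped to bring them into the test. In contrast H2BC9 stood at 4.28 CPM in S04 and 5.03 in S36, against 2.41 to 5.42 CPM in WT clones, so its groups overlapped, and its log2 fold change was 0.27 (SE 0.34, adjusted p = 0.659).

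H3 genes were the least abundant class. H3C1 stood at 3.49 CPM in S04 and 4.04 in S36, against 0.177 to 0.786 CPM in WT clones (log2 fold change 2.80, edgeR adjusted p = 0.0287). H3C11 was at 2.71 and 3.96 CPM in S04 and S36, against 0.419 to 1.06 CPM in WT clones (log2 fold change 2.17, adjusted p = 0.0216). H3C8 and H3C10 had log2 fold changes of 2.15 and 1.23 and also passed. H3C1, H3C11 and H3C8 met the count level of the filter in 3, 3 and 1 WT clones and entered with the help of KO clones. H3C7 split the S clones, with 0.301 CPM in S04 and 3.20 in S36, against 0.367 to 1.74 CPM in WT clones, and was not called.

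Among H4 genes only H4C5 and H4C1 were called. They met the count level of the filter in 3 and 1 WT clones and entered with the help of KO clones. H4C5 was at 3.13 CPM in S04 and 3.51 in S36, against 0.584, 0.367, 0.612 and 0.576 CPM in WT10, WT13, WT28 and WT30 (log2 fold change 2.61, SE 0.37, edgeR adjusted p = 0.00655). H4C1 was at 1.87 and 5.26 CPM in S04 and S36, against 0.157 to 0.621 CPM in WT clones (log2 fold change 3.18, adjusted p = 0.0171). H4C3, which carries nearly all H4 counts, had a log2 fold change of 0.61 (SE 0.20, adjusted p = 0.0867), with both S clones above all WT clones. H4C2 (log2 fold change 2.20, edgeR adjusted p = 0.0726) and H4C13 (1.61, adjusted p = 0.0538) did not pass. Among the tested histone genes of all classes, H4C11 was the single one with a negative value, -0.31.

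**Figure D3:**
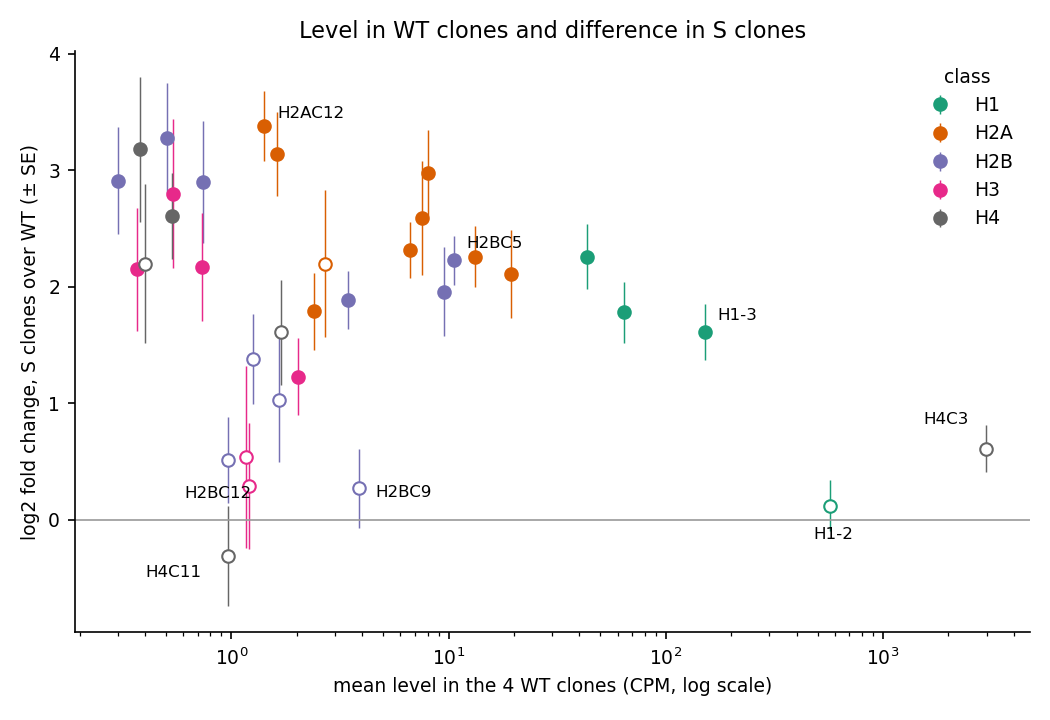
Log2 fold change of S clones over WT clones (y axis, bars are standard errors) against the mean level in the 4 WT clones (x axis, CPM on a log scale) for the 35 tested histone genes, coloured by class. Filled points passed an adjusted p of 0.05 and open points did not. The most abundant genes, H4C3 at 2990 CPM and H1-2 at 572 CPM in WT clones, lie low at 0.61 and 0.12, and the open points near 0 at about 1 CPM include H2BC12 and H4C11.

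In 30 of the 35 genes the CPM values of S04 and S36 lay within 2-fold of each other, beside 78.1% of all genes tested. The same count was 17 for C12 and C15, beside 73.3%, and 26 to 32 for pairs of WT clones, beside 92.2% to 94.4%. Of the other genes in the S clones, in 4 S36 was more than 2-fold above S04, and in 1 the reverse held. S36 was the higher of the pair in 24.

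The C clones were not called apart from WT clones in any of the 35 genes by edgeR, DESeq2 or limma-voom. Of all genes tested, 0.0351% were called by edgeR and by limma-voom, and 0.541% by DESeq2. At an unadjusted p under 0.05 there were 5, of which 4 were higher, beside 3.43% of all genes that were higher. Their median log2 fold change was 0.47, and C12 and C15 lay at different levels, as above, so this median describes neither. Set directly against the S clones, 3 of 35 genes were lower in C clones, beside 0.133% of all genes that were lower, and none was higher, beside 0.225%.

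All 3 are H2A genes. H2AC12 stood at 1.08 CPM in C12 and 2.02 in C15, against 11.7 in S04 and 18.1 in S36 (log2 difference C minus S -3.51, SE 0.43, edgeR adjusted p = 0.0311). H2AC8 stood at 6.24 and 11.3 CPM in C12 and C15, against 28.2 and 38.4 CPM in S04 and S36 (log2 difference -2.03, SE 0.31, adjusted p = 0.0490). H2AC20 stood at 11.1 and 22.2 CPM in C12 and C15, against 57.6 and 70.5 CPM in S04 and S36 (log2 difference -2.04, SE 0.34, adjusted p = 0.0490). The C and S clones did not overlap in these genes, which adds nothing to the test that picked them. The median difference of all 35 genes was -1.52, against -0.05 over all genes. The number called here ran from 0 without any 1 of the WT clones to 8 without C15.

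The 69 genes lie in 4 places. The main cluster, on the short arm of chromosome 6 at chr6:25726063-27893891, holds 55 genes in 3 blocks of 34, 5 and 16 genes separated by gaps above 500000 bases. A smaller cluster at chr1:149782689-149887965 holds 11 genes, another at chr1:228457364-228458558 holds 2, and H4C16 lies alone at chr12:14770720-14771131. No gene of the second chromosome 1 cluster had a count in any clone, and H4C16 had 0 in every KO clone and at most 2 counts in a WT clone.

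Both clusters that carried counts had a larger share in S clones than in WT clones. The larger chromosome 1 cluster took 0.00241% of counts in C12 and 0.00461% in C15, and 0.0109% in S04 and 0.0164% in S36, against 0.00207% to 0.00297% across the WT clones, and all 4 of its tested genes (H2AC20, H2AC21, H2BC18 and H2BC21) were called higher in S clones. Of these H2BC18 met the count level of the filter in only 2 WT clones. In the chromosome 6 cluster 19 of 31 tested genes were called, beside 4.69% of all genes that were higher. By block these were 10 of 17, 2 of 4 and 7 of 10, with median log2 fold changes of 2.15, 1.41 and 2.14. Genes with and without a call stood side by side in each block.

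Non-histone genes inside the chromosome 6 cluster were tested as well. There were 15 of them, among them the butyrophilin genes BTN3A1 and BTN2A2 (log2 fold changes 0.50 and 0.57). None was called in S clones, beside 4.69% of all genes that were higher and 4.96% that were lower. At such shares 15 genes would hold few calls, so nothing is drawn from this count. Their median difference from the WT mean was 0.10 in C12 and -0.04 in C15, and 0.24 in S04 and 0.32 in S36. Their log2 fold changes in S clones ran from -0.81 to 1.36, with a median of 0.25, against 2.11 for the 31 histone genes around them. The other 537 tested genes of chromosome 6 had a median log2 fold change of 0 in S clones after rounding, and the other 1308 of chromosome 1 had a median of 0.13.

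**Figure D4:**
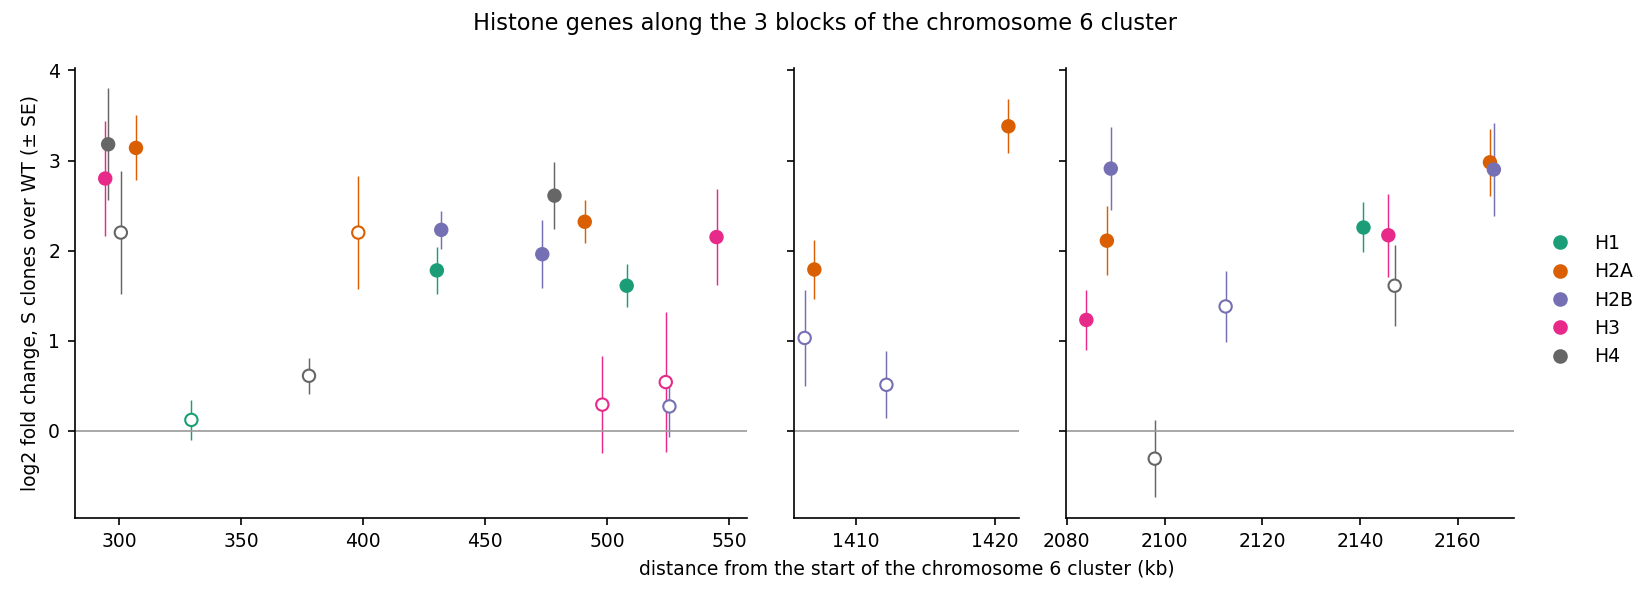
Log2 fold change of S clones over WT clones (y axis, bars are standard errors) of the 31 tested histone genes of the chromosome 6 cluster by distance from the start of the cluster (x axis, kb), in 3 panels for its 3 blocks, each with its own distance scale. Filled points passed an adjusted p of 0.05. High values near 3 occur in each block beside low ones, the lowest being 0.12 (H1-2), 0.51 (H2BC12) and -0.31 (H4C11). H1-2 lies at about 330 kb and H4C3 (0.61) at about 378 kb of the first block. In that block H2BC9 (0.27), H3C6 (0.29) and H3C7 (0.54) also lie below H4C3.

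Many H2A and H2B genes lie head to head and share the stretch between their start sites as a promoter. There were 14 head-to-head pairs of histone genes with start sites within 1000 bases, 12 of an H2A with an H2B gene and 2 of an H3 with an H2B gene, and in 6 pairs both genes were tested. A ratio of counts within a pair does not depend on library scaling. The 250 bases before the start sites of H2BC12 (chr6:27146859-27147108, minus strand) and H2BC17 (chr6:27893175-27893424, plus strand) are shown because each spans the whole stretch shared with its H2A partner, and these pairs behaved differently. Capitals mark 3 motifs on either strand, the TATA box (TATAAA), the CCAAT box and the octamer (ATTTGCAT), some of which overlap one another. The sequences are from RefSeq on GRCh38.p14.
H2BC12: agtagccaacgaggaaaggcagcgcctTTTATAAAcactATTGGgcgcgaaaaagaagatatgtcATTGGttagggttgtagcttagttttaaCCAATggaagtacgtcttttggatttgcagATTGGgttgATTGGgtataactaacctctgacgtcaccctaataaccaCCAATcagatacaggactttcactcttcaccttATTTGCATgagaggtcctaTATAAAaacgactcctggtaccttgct
H2BC17: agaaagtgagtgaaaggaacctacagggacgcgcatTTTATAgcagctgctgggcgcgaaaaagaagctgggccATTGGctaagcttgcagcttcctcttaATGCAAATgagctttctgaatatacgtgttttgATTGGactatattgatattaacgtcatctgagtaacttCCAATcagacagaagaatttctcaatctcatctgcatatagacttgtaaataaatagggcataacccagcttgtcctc

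H2AC12 and H2BC12 start 247 bases apart. H2AC12 had 28 counts and H2BC12 28 in C12, 5 and 3 in C15, 194 and 23 in S04, and 237 and 18 in S36. In WT clones the counts of H2AC12 and H2BC12 were 29 and 23 in WT10, 23 and 20 in WT13, 35 and 18 in WT28, and 29 and 17 in WT30. H2AC12 thus took as many counts as its partner in C12 and 62.5% of the pair's counts in C15, with 89.4% in S04 and 92.9% in S36, against WT values of 53.5% to 66.0%. The 95% Wilson intervals of S04 (84.6% to 92.8%) and S36 (89.1% to 95.5%) lay above that of each WT clone, the highest of which ended at 77.3%. These intervals cover counting error only and not the spread between clones. The pair was picked from the 6 after its values were seen. Its shift in part restates the large difference of H2AC12 in S clones given above. H2BC12 itself had a log2 fold change of 0.51 in S clones (SE 0.37, edgeR adjusted p = 0.417).

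H2AC17 and H2BC17, which start 239 bases apart, were both called. The log2 fold change in S clones was 2.98 for H2AC17 and 2.90 for H2BC17, and H2AC17 took 88.0% of the pair's counts in C12 and 89.1% in C15, and 93.1% in S04 and 90.4% in S36, against 86.1% to 95.6% across the WT clones. H2AC14 and H2BC14 (2.11 and 2.91) and H2AC20 and H2BC21 (2.26 and 1.89) were likewise both called. In H2AC11 and H2BC11 (1.79 and 1.03) only the H2A gene was, and in H2BC9 and H3C7 (0.27 and 0.54), which start 978 bases apart, neither was. A limit on the first pair is shared sequence. Of the 50-base windows of the annotated H2BC12 transcript, 74.1% also occur in a transcript of another gene, against 3.8% for H2AC12. How reads with several matches were counted is not given in the sources used here. Another limit is that RefSeq gives the H2BC12 gene a span of 8566 bases, against 381 for its GENCODE transcript.

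**Figure D5:**
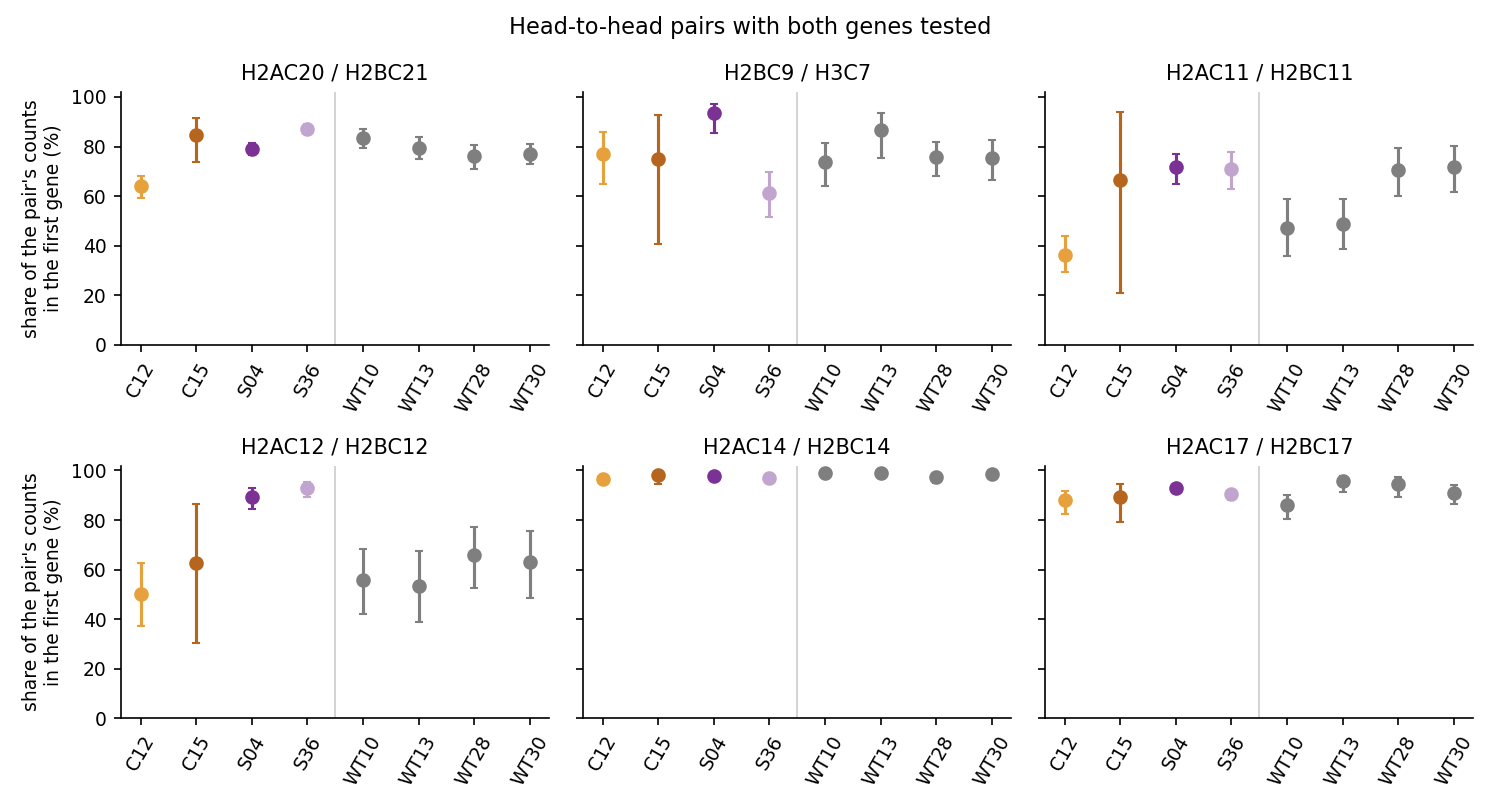
Share of a head-to-head pair's counts that fell in the first-named gene (y axis, %) in each clone, for the 6 pairs with both genes tested. Points are clones with KO left of the grey line and WT right of it, and bars are 95% Wilson intervals. In the H2AC12 / H2BC12 panel S04 (89.4%) and S36 (92.9%) stand above all other clones, while in H2AC17 / H2BC17 all clones lie between 86.1% and 95.6%.

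Promoter motifs followed class. CCAAT was found in all promoters of the H1, H2A, H2B and H3 genes and in 3 of 13 H4 promoters, against 36.9% of the 27241 other promoters of that table. The octamer was found in 11 of 16 H2A and 14 of 18 H2B promoters, in 1 of 11 H3 promoters and in none of H1 or H4, against 1.9% of the others. TATAAA was found in 3 of 6 H1, 12 of 16 H2A, 12 of 18 H2B, 9 of 11 H3 and 7 of 13 H4 promoters, against 12.9% of the others. The 16 tested genes with an octamer had a median log2 fold change in S clones of 2.23 with 12 called, and the 15 without had 1.61 with 8 called. Since the octamer marks H2A and H2B, these sets differ by class as well. For TATAAA the medians were 2.11 in 23 genes with it and 2.05 in 8 without.

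The 3′ stem-loop was found in GENCODE transcripts of 27 genes. The hairpins of 7 tested genes are shown with 5 bases on each side, from the strand of the mRNA, because genes with the same hairpin differed in S clones. Capitals mark the 16 bases of the stem-loop.
H2AC8: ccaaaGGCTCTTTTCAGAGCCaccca
H2BC21: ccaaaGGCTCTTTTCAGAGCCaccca
H3C10: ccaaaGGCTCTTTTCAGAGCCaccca
H2BC9: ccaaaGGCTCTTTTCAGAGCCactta
H2BC5: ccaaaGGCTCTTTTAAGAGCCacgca
H4C5: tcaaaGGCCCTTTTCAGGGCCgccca
H4C11: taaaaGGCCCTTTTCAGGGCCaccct
H2AC8 and H2BC9 carry the same 16 bases and had log2 fold changes in S clones of 2.32 and 0.27. H4C5 and H4C11 share another version and had 2.61 and -0.31. Many annotated transcripts stop at the coding end, so a hairpin that was not found may lie beyond them.

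Some of these genes are also annotated with spliced or extended transcripts. Where these end relative to the stem-loop was not worked out. In 13 of the 65 genes with a GENCODE transcript one has more than 1 exon, and 6 of these were tested (H2BC5, H2BC11, H2BC15, H2BC18, H2AC6 and H3C6). Their median log2 fold change in S clones was 1.79 with 2 called, against 2.15 with 21 called for the 29 tested genes with single-exon transcripts only. In C12 the spliced set had a median of 0.80 above the WT mean and the single-exon set -0.08, while in C15 these medians were -1.0 and 0.75, in S04 1.95 and 1.89, and in S36 1.09 and 2.19. The C15 medians rest on few counts. A split by RefSeq gene span puts H2BC12 with the longer genes. The 5 tested genes with a span above 1000 bases had a median in S clones of 1.89 with 3 called. The 30 with a shorter span had 2.16 with 20 called. Gene counts do not say which transcript gave the reads, and no test was made of these sets.

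Other RNAs that lack a poly(A) tail stood high in the same clones. RMRP, the RNA of the mitochondrial RNA processing ribonuclease, stood at 1.39 CPM in C12 and 1.21 in C15, with 6.20 in S04 and 5.18 in S36, against 0.691 to 1.20 CPM in WT clones. RN7SL1, an RNA of the signal recognition particle, stood at 2.66 CPM in C12 and 3.22 in C15, and 9.21 in S04 and 6.10 in S36, against 1.68 to 3.40 CPM in WT clones. Both were called higher in S clones (log2 fold changes 2.62 and 1.57, edgeR adjusted p = 0.00439 and 0.0202), and the other 5 such RNAs listed for this purpose had no count.

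Small nucleolar, Cajal body, spliceosomal and Y RNAs, taken by symbol, took 0.0670% of counts in C12 and 0.119% in C15, with 0.235% in S04 and 0.295% in S36, against WT values of 0.0567% to 0.0738%. Of 103 tested, 28 were higher in S clones and none was lower, beside 4.69% and 4.96% of all genes, and their median log2 fold change was 1.10, against 0.02 over all genes. MT-RNR1, an RNA of the mitochondrial ribosome, took 1.66% of counts in C12 and 2.38% in C15, and 4.51% in S04 and 5.52% in S36, against 1.25% to 2.02% across the WT clones. All mitochondrially encoded genes together took 14.8% in C12 and 21.2% in C15, with 18.5% in S04 and 16.8% in S36, against WT values of 12.9% to 15.1%, so C15 was the highest there. How RNA was selected for these libraries is not stated in any source used here. The part of such differences between libraries in the histone values was not tested.

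Replication-independent histone genes, whose mRNAs mostly carry poly(A) tails, had smaller differences. The median log2 fold change in S clones of the 9 tested was 0.27, against 2.15 for the 35 genes. Of the 9, 7 were above 0, beside 7386 of all 14243 genes tested. H2AZ1, a replacement H2A, was at 1720 and 1700 CPM in S04 and S36, against 2360 ± 216 CPM in WT clones (SD, n = 4), and did not pass (edgeR adjusted p = 0.148).

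Genes for the activators and processing factors of histone mRNA showed no shared direction in S clones. The 1 or 2 calls in each of these short lists stand beside 4.69% of all genes that were higher and 4.96% that were lower. Of 8 tested genes for histone transcription, COIL, the Cajal body scaffold, was lower in S clones (51.2 CPM in S04 and 56.5 in S36, against 89.2 ± 4.20 CPM in WT clones, log2 fold change -0.73, edgeR adjusted p = 0.0262). NPAT, the coactivator of the histone clusters, was at 66.8 and 98.7 CPM in S04 and S36, against 91.6 ± 2.65 CPM in WT clones, and did not pass. Of 11 tested genes for 3′ end formation, SYMPK, a scaffold of the cleavage complex, was lower at 36.6 CPM in S04 and 77.8 in S36, against 139 ± 16.6 CPM in WT clones (log2 fold change -1.28, adjusted p = 0.0238). SLBP was at 96.3 and 69.6 CPM in S04 and S36, against 63.6 ± 7.19 CPM in WT clones, and did not pass (adjusted p = 0.372).

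Of 8 tested genes for histone mRNA decay, LSM1, a subunit of the cytoplasmic LSM ring, was higher at 4.70 CPM in S04 and 7.55 in S36, against 1.94 ± 0.383 CPM in WT clones (log2 fold change 1.65, edgeR adjusted p = 0.0189). Of 17 tested histone chaperone genes, NASP, which carries H3 and H4 before assembly, and ATRX, which places H3.3, were lower in S clones, with log2 fold changes of -0.63 and -0.56. Medians over these lists in S clones ran from -0.10 for chaperones to 0.39 for decay.

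Cell cycle genes were called in both directions in S clones, where 4.69% of all genes were higher and 4.96% lower. Of 23 tested S phase genes, TYMS, thymidylate synthase, was higher in S clones at a low level (log2 fold change 1.48), CLSPN, an S phase checkpoint protein, was lower (-0.71), and the list had a median log2 fold change of 0.06. Of 12 tested G2 and M phase genes, the spindle motor KIF11 was higher (0.83), the topoisomerase TOP2A and the kinase AURKA were lower (-0.59 and -1.18), and the median was 0.01. In S04 and S36 the S phase genes lay at medians of -0.02 and 0.06 from the WT mean and the histone genes at 1.89 and 2.11. No gene of the variant histone, transcription, 3′ end, decay, chaperone and cell cycle lists was called in KO against WT clones or in C against S clones. Those with the smallest KO p included CPSF3, the endonuclease of the cleavage complex (log2 fold change -0.50), TUT7, a uridylyltransferase (0.47), the replication genes GINS1 (0.54) and POLE2 (0.68), and the chaperone gene ASF1A (0.42), none of which passed.

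The 34 genes that were not tested add 13 with no count in any clone and 21 with few. Summed over the 21, the counts were 94 in C12 and 11 in C15, with 342 in S04 and 304 in S36, against 64, 83, 75 and 70 in WT10, WT13, WT28 and WT30. That is 3.62 CPM in C12 and 4.43 in C15, and 20.6 in S04 and 23.2 in S36, against 3.10 to 4.35 CPM in WT clones. In 10 of the 21 genes both S clones were above all WT clones. No share over all genes left out by the filter was worked out to set beside this count, so nothing is drawn from it. H3C2 had the most, with 8 counts in C12 and 0 in C15, with 87 in S04 and 31 in S36, against 1, 12, 9 and 7 counts in WT clones. H2AC16 had 8, 1, 60 and 29 counts in C12, C15, S04 and S36, against 8, 8, 3 and 1 in WT clones. Both were picked for their totals.

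Near-identical copies limit what can be said of single genes. Among the 10 genes without a count that have a GENCODE transcript, 5 had over 50% of their 50-base windows in a transcript of another gene, among them the duplicated genes H3C14, H3C15, H4C14 and H4C15. Among the 35 tested genes 4 did, namely H2AC14, H2AC17, H2BC12 and H4C11, and 17 shared no window at all, H4C3 and the 4 tested H1 genes included. A count of 0 in a duplicated gene therefore may not mean an absent mRNA.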

How the data were processed

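The authors deposited raw counts per gene and clone. FastQC, TopHat2, SAMtools and Subread with the hg38 build are named in the submitters' processing notes. The versions, strand setting and handling of reads with several matches are not stated in any source used here. Histone genes were taken by symbol. The members and the lists beside them were chosen with earlier results of these data known.

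Counts were filtered with filterByExpr by KO and WT group (0.522 CPM in at least 4 clones), scaled by TMM factors and tested two-sided by quasi-likelihood in edgeR 4.0.16 under R 4.3.3, adjusted by Benjamini-Hochberg over all 14243 genes, threshold 0.05. A fit with 3 groups (C, S, WT) gave the other contrasts. Sums, shares and medians over histone genes have no test. NKX2-1 was compared by exact permutation over 70 assignments, with a smallest p of 0.0286. Positions and promoters came from RefSeq (GRCh38.p14, all 69 symbols placed, 64 with a promoter), transcripts from GENCODE release 29 (65 genes). Levels per kb use the median annotated transcript length. The fits were tested on simulated data. Chi-square per degree of freedom between clones was at least 25.9 within KO and 12.3 within WT, so no library repeats another. Alternatives covered scaling, filters, DESeq2 1.42.0, limma-voom 3.58.1, thinning to 2730285 counts and leaving out each clone. The genes named were, per class, the 4 with the smallest KO p and the 3 with the highest level per kb, those past the threshold in KO or C against S, and up to 3 per other list, plus others said to be chosen after seeing their values or needed to account for calls in S clones. The result of 1 replication-independent histone gene is not reported here.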

Additional observations from a re-analysis of the deposited data

Results flagged for a closer look

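The differences between C and S clones in 3 H2A genes were singled out by the test of the difference itself, C minus S. The log2 difference was -3.51 in H2AC12, -2.04 in H2AC20 and -2.03 in H2AC8, and in each the C clones lay below both S clones.

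H4C5 was singled out because 1 clone lay far from the others of its group. Its log2 CPM was -1.06 in WT13, below the other WT clones. Of 68 groups of 4 clones looked at, 1 stood out in this way, against 3.4 that chance gives.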

How the results depend on the processing

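The median log2 difference of the histone genes kept its sign in KO and S clones against WT and in C against S under every alternative run, from 1.21 to 1.93, 1.89 to 2.26 and -1.90 to -1.17 when 1 clone was left out. It was 0.28 with C clones alone as KO. That of C clones ran from -0.09 without C15 to 0.66. Shares in brackets below are of all genes tested in that setting, called in either direction. The number of histone genes called in KO clones was 0 of 35 here (0.316%). It was 16 of 35 with DESeq2 (3.6%), 24 of 56 without a low-count filter (1.85%) and 35 of 45 with S clones alone (14.5%). With 1 clone left out it ran from 0 to 19, the latter of 39 without C12 (3.13%). In S clones it was 23 of 35 here (9.65%), 11 of 15 after thinning (6.46%) and 35 of 56 without a filter (7.23%). With 1 WT clone left out it ran from 16 to 20, the ends being 16 of 39 without WT30 (2.05%) and 20 of 41 without WT10 (3.42%). In C clones it was 0 of 35 here (0.0351%), 3 of 56 without a filter (0.827%), and 0 with any 1 WT clone left out. In C against S, 3 here, it was 13 with DESeq2, 10 with limma-voom, 22 without a filter, 1 with DESeq2 size factors or a mean CPM of at least 1, 0 after thinning, and 0 to 8.

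Over all genes KO against WT gave 45 calls, but 513 with DESeq2, 94 with limma-voom, 581 without a filter, 29 with library totals only, 3 after thinning, 2211 with S clones alone, 6 with C clones alone, and 3 to 456 with 1 clone left out. S against WT gave 1374, but 638 after thinning, 2266 without a filter, and 300 to 2164. C against WT gave 5, but 77 with DESeq2, 259 without a filter, 1 after thinning, and 1 to 174. C against S gave 51, but 626 with DESeq2, 89 with limma-voom, 762 without a filter, 15 with library totals only, 14 with DESeq2 size factors or a mean CPM of at least 1, and 0 to 749. Fewer genes are tested under thinning. Other causes were not tested.

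As log2 ratios of KO to WT shares, the sums without H4C3 and H1-2 (added after seeing the data) were 1.46 for all classes, 1.33 for H1, 1.54 for H4 and 1.43 for the chromosome 6 cluster. With 1 clone left out the ratio was 0.43 to 0.76 for all classes, 0.54 to 0.88 for H1, 1.53 to 2.22 for H2A, 1.26 to 1.75 for H2B, 0.85 to 1.48 for H3, 0.35 to 0.64 for H4, 0.42 to 0.74 for the chromosome 6 cluster and 1.28 to 2.12 for the chromosome 1 cluster.

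Signs turned in few genes, none of them called in the comparison whose sign turned. With C clones alone as KO these were H2AC12 (-0.15), H3C11 (-1.17), H3C7 (-1.01) and H4C13 (-0.50). H3C7 also turned with limma-voom (-0.43 in KO, -0.16 in S), without WT13 (-0.23 in KO) and without S36, and with 1 clone left out it ran from -1.30 to 0.45 in KO, -1.94 to 1.44 in S and -2.44 to 0.95 in C against S. H1-2 turned without S36 (-0.06 to 0.28 in S) and without C15 (-0.32 to 0.57 in C against S). No paired analysis was possible because the labels give the clones no replicate numbers or pairing. Counts limit most genes under 1 CPM and nearly all of them in C15.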

Other observations

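Pseudogene rows of the histone clusters lie outside the rule. Of 15 such rows 5 had a count and 2 were tested. H2AC9P, not tested, had 13 counts in C12 and 0 in C15, with 50 in S04 and 53 in S36, against 6, 2, 4 and 6 counts in WT10, WT13, WT28 and WT30. H1-12P stood at 5.62 CPM in C12 and 4.84 in C15, and 5.72 in S04 and 3.74 in S36, against 1.31 to 2.44 CPM in WT clones, so all KO clones lay above all WT clones. Its log2 fold change was 1.34 in S clones (edgeR adjusted p = 0.033) and 1.5 in C clones (adjusted p = 0.361), and 1.42 in all KO clones (adjusted p = 0.0836). H3C9P was not called (log2 fold change 0.15). These rows were picked after their counts were seen, and reads of near-identical genes may reach them.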
